A study of Drosophila melanogaster with 12 samples.

Results

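Heads of Drosophila melanogaster, brain included, in which dppil4 was knocked down in clock cells were compared with control heads at ZT16, the 16th hour after lights on and 4 h into the dark phase of a 12 h light and 12 h dark cycle. The comparison rested on 6 of the 12 libraries of the study, 3 per genotype, and the members were taken from the genotype and time in the labels. The other 6 libraries had the same genotypes at ZT8, in the light phase. Control flies carried 1 copy each of UAS-dicer2 and of a tim(UAS)-Gal4 driver, and knockdown flies carried UAS-dicer2 over a UAS-dppil4 RNAi hairpin together with the same driver. Both genotypes therefore expressed the driver and the dicing enzyme Dicer-2, which strengthens RNA interference. As given, the genotypes differed by the hairpin, but a shared strain background is not stated in them. Effects of the hairpin and of strain background therefore cannot be told apart, for any change below. The driver is active in clock cells, whereas the RNA came from whole heads, and flies were collected on day 4 of the light cycle. The labels gave neither the sex nor the age of the flies, and did not say whether libraries came from separate flies. The p values therefore measure the spread between libraries, which may be technical. That spread was estimated in a model over all 12 libraries, those at ZT8 included.

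dPPIL4, the product of the gene CG5808, belongs to the cyclophilins, enzymes that turn the peptide bond before proline, and its relatives carry an RNA-binding domain and act close to RNA polymerase II. In the fly clock, the proteins CLOCK and CYCLE drive transcription of per and tim in the evening, and the PERIOD and TIMELESS proteins then enter the nucleus at night and repress it. ZT16 falls in the hours when per and tim transcripts are near their peak. The study asked how dPPIL4 bears on the amplitude of the PERIOD rhythm.

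Expected counts per library were 25844821 to 31848667. Levels below are CPM, counts scaled to a library of 1000000, and changes are log2 fold changes of knockdown against control ± their standard error. The call of a change needed an adjusted p under 0.05 in edgeR's quasi-likelihood test with Benjamini-Hochberg adjustment over all genes tested. Control replicate 1 stood apart from the others. On the first principal component of the 6 libraries, which held 58.6% of the variance, it lay at -59.24, against -14.86 and -6.86 for control replicates 2 and 3 and 25.67 to 27.91 for knockdown. Midgut marker transcripts summed to 2790, 424 and 437 CPM across control libraries and 591, 619 and 582 CPM across knockdown ones, and ovary and eggshell markers to 740, 40.5 and 29.2 CPM across control libraries and 23.2, 21.6 and 24.4 CPM across knockdown ones. These sums came from genes of other organs and stood apart in that 1 library, so counts are also given without it. Male germline markers were at or below 3.19 CPM in all 6. Ribosomal RNA took 6.40% to 8.05% of the counts in control and 8.94% to 9.73% in knockdown. The mitochondrial part of it was 2.31% to 2.47% in control and 3.51% to 3.73% in knockdown, without overlap, and the nuclear part overlapped between the groups.

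CG5808 itself (chromosome 3R) had control levels of 6.17, 5.86 and 5.16 CPM and knockdown levels of 4.46, 4.08 and 3.71 CPM. The knockdown range ended below the control range, a difference of -0.49 ± 0.16 (adjusted p = 0.0427). This call rested on few reads and ended without control replicate 1 (adjusted p = 0.11) or 2 (0.0883) and without knockdown replicate 1 (0.0723), 2 (0.112) or 3 (0.139). The gene overlaps CG34150 and an antisense RNA on the opposite strand, the strand setting of the authors' read counts is not known from the labels, and reads of the hairpin's own transcripts cannot be separated from reads of the gene. In whole heads, fewer cells of a type and less RNA per cell cannot be told apart, for this gene and for every change below.

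Of 10717 genes tested, 2379 (22.2%) changed at ZT16. Of these, 1204 (11.2% of genes tested) rose and 1175 (11.0%) fell. Most changes were small: the median size among called genes was 0.34 on the log2 scale, 1781 called genes (74.9%) changed by less than 1.5-fold, and 153 rose (1.43% of genes tested) and 194 fell (1.81%) by at least 2-fold. Without control replicate 1, 825 genes rose (7.58%) and 802 fell (7.37%) among 10877 tested, and 1494 of the 2379 genes (62.8%) were called in the same direction. Without knockdown replicate 1, 2 or 3, 1309, 1537 and 1447 genes were called. In the fits with any 1 of the 6 libraries left out, 1078 genes (645 that rose and 433 that fell) were called each time, and the genes named below as risen or fallen belong to these unless said otherwise. Where 6 counts in a row are given for a list, they are those without control replicates 1, 2 and 3 and without knockdown replicates 1, 2 and 3, in that order. Which direction prevailed hung on the unit. On the authors' TPM values 621 genes rose and 1115 fell, and the median over all genes was -0.071, against -0.017 on counts.

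**Figure D1:**
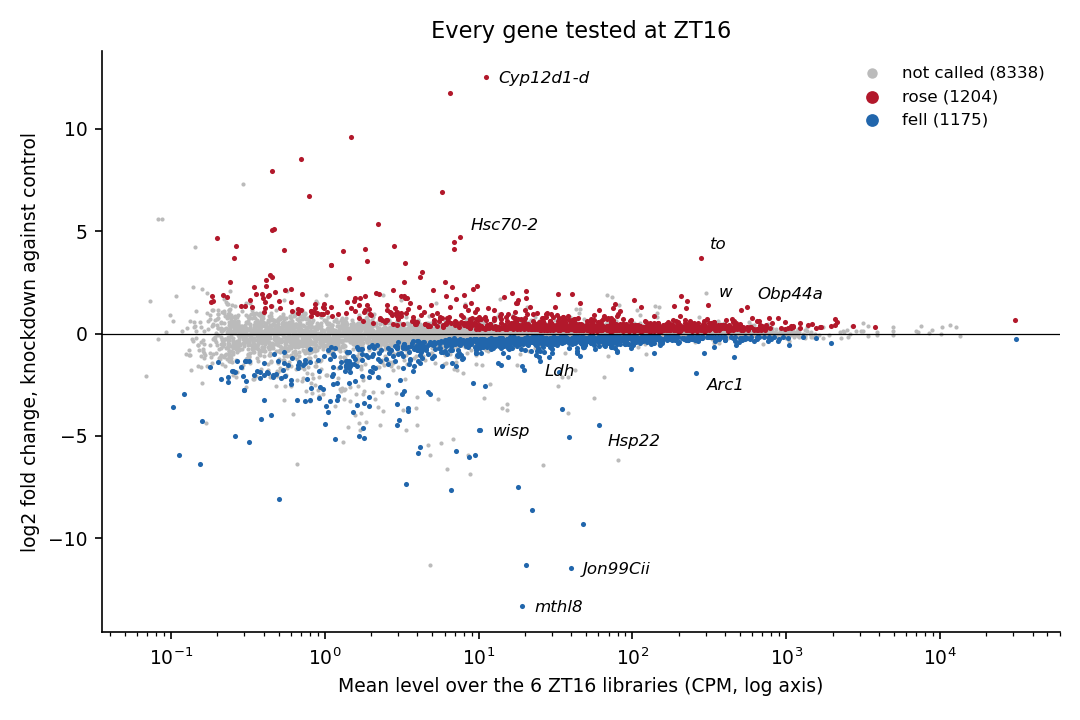
Each point is 1 of the 10717 genes tested; the horizontal axis is the mean level over the 6 ZT16 libraries in CPM (log axis) and the vertical axis the log2 fold change of knockdown against control. The 1204 genes that rose are red, the 1175 that fell are blue, and fitted values of genes with 0 reads in 1 group, such as Cyp12d1-d and mthl8, depend on the fit's prior count and are not bounds.

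The clock gene per (chromosome X) was lower in knockdown heads. It had control levels of 289, 306 and 301 CPM and knockdown levels of 235, 227 and 239.6 CPM, and the highest knockdown library stood under the lowest control library (log2 fold change -0.35 ± 0.046, adjusted p = 4.22e-04). The call held without control replicate 1 (adjusted p = 8.13e-04), and per overlaps dyw on the opposite strand. Its partner tim had control levels of 1599.5, 1687 and 1767 CPM and knockdown levels of 1604, 1562 and 1622 CPM. Control replicate 1 lay within the range of the knockdown libraries, and tim did not pass the test (log2 fold change -0.08 ± 0.051, adjusted p = 0.291). Clk, the activator of both, had control levels of 9.39, 12.2 and 11.1 CPM and knockdown levels of 8.0, 8.84 and 9.45 CPM. The groups overlapped by control replicate 1, and the call (adjusted p = 0.0437) ended without control replicate 2 (0.167) or 3 (0.115) or knockdown replicate 1 (0.177), 2 (0.106) or 3 (0.0553). The repressor gene vri had control levels of 419, 440.4 and 464 CPM and knockdown levels of 399, 383 and 397 CPM, without overlap, but did not pass the test (-0.17 ± 0.062, adjusted p = 0.0726). A further repressor gene of the loops, cwo, stood at 0.14 ± 0.05, and cyc, Pdp1 and the light receptor gene cry at -0.08 ± 0.068, -0.05 ± 0.069 and 0.14 ± 0.085, none of them past the test. In all, 2 of 8 core clock genes tested fell and 0 rose, and the falls numbered 2, 1, 1, 1, 1 and 1 with 1 library left out. Neither per nor vri changed the shares of its transcript variants by the usage test described further on (adjusted p = 0.895 and 1.0). For tim the usage test gave an adjusted p of 0.0312, a call that ended without control replicate 1 (0.155).

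Among 24 genes for the kinases, phosphatases and degradation factors that act on clock proteins, 3 rose and 2 fell, shares of 12.5% and 8.33% that lie near those of all genes tested. With 1 library left out 2, 3, 2, 2, 3 and 2 rose and 2, 2, 2, 2, 1 and 2 fell. Usp8, a deubiquitinase that acts on CLOCK in flies, fell from 143, 159 and 151 CPM to 115, 115 and 113 CPM (log2 fold change -0.40 ± 0.045, adjusted p = 1.54e-04). bsk, the fly JNK kinase gene, rose from 110.2, 115 and 116 CPM to 149, 141 and 147 CPM (0.35 ± 0.054), and the protein phosphatase 1 subunit gene Pp1alpha-96A rose (0.29 ± 0.059). For these 3 genes the groups did not overlap. The kinase genes sgg (0.01 ± 0.041) and Pka-C1 (0.08 ± 0.045), the most abundant members that were not called, stood near 0. Of 20 clock output and clock neuron peptide genes, 4 rose and 1 fell. takeout (to), a clock-controlled gene linked to feeding, had control levels of 37.3, 38.6 and 43.7 CPM and knockdown levels of 494, 522 and 542 CPM. Its lowest knockdown library stood more than 10 times above its highest control library (log2 fold change 3.70 ± 0.24, adjusted p = 1.33e-05), and the change was of like size at ZT8 (3.83 ± 0.24). Genes of the sodium leak channel that sets the firing of clock neurons moved together in one direction: the pore gene na (0.29 ± 0.065), the partner gene Mid1 (0.37 ± 0.066) and the auxiliary subunit gene unc80 (0.35 ± 0.068) rose. Mid1 had control levels of 131, 151 and 138 CPM and knockdown levels of 195, 170.4 and 177 CPM, without overlap. At ZT8 the 3 genes stood at -0.07 ± 0.065, -0.05 ± 0.065 and 0.04 ± 0.068, none past the test. The difference between the times passed the test for Mid1 (0.42, adjusted p = 0.0352), with 2 of 6 calls when 1 ZT16 library was left out, and not for na (adjusted p = 0.0506) or unc80 (0.0906). The peptide genes sNPF and Dh44 were not called (0.08 ± 0.12 and -0.07 ± 0.059).

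Some genes were near silent in 1 genotype. The cytochrome P450 gene Cyp12d1-d had 0 reads in control. Its knockdown libraries held 22.4, 23.4 and 21 CPM, which is at least 652-fold higher by a floor of 3 counts over the group, a bound that covers counting error only. Its near-identical neighbour Cyp12d1-p, between which the authors' read assignment could split reads, had control levels of 16.6, 9.78 and 13.2 CPM and knockdown levels of 23, 19.5 and 21.6 CPM and was not called (adjusted p = 0.0793). CG18853 also had 0 reads in control, against 11.5, 12.7 and 14.6 CPM with the hairpin (at least 383-fold higher), and overlaps Prosalpha1R on the opposite strand. The receptor gene mthl8 went the other way, with 34.5, 41.7 and 39.3 CPM in control and 0 reads in knockdown, at least 1050-fold lower. The peptide hormone gene for eclosion hormone, Eh, rose from 0.102, 0.0682 and 0.137 to 3.82, 4.69 and 4.46 CPM (5.35 ± 0.33). The heat shock cognate gene Hsc70-2 rose from 0.441, 0.648 and 0.547 to 15.4, 13.6 and 14.9 CPM (4.74 ± 0.17). These changes were also called at ZT8, where Cyp12d1-d and CG18853 had 0 reads in control as well.

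Other large rises, each without overlap, were those of lncRNA:CR45284 (6.92 ± 0.52, but 11.58 without control replicate 3), CG11854 (4.47 ± 0.43, overlapped by bam), the cuticle gene Ccp84Ag (4.27 ± 0.44), the P450 gene Cyp309a2 (4.14 ± 0.38), CG17267 (3.02 ± 0.55), CG31809 (2.54 ± 0.24), the glycosyltransferase gene Ugt37A3 (2.53 ± 0.16) and CG13026 (2.17 ± 0.19). Large falls were those of asRNA:CR45822 (-7.66 ± 0.36) and asRNA:CR45835 (-5.74 ± 0.28), antisense to CTCF and Sec63, CG18473 (-3.46 ± 0.21), CG7910 (-2.87 ± 0.45), lncRNA:CR44298 (-2.26 ± 0.29) and the immune gene PGRP-SD (-2.57 ± 0.34). Each of these 14 genes was called with any 1 of the 6 libraries left out. Whether the authors' counts separate an antisense RNA from its partner is not known, since the strand setting of the counting is not given.

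A further set of large falls had by far its highest level in control replicate 1. Jon99Cii, a digestive protease gene with near-identical copies, had control levels of 233, 4.43 and 0.376 CPM and knockdown levels of 0.0402, 0.0378 and 0 CPM. wisp, a poly(A) polymerase gene of the female germline, had control levels of 53.8, 3.0 and 2.19 CPM and knockdown levels of 0.603, 0.718 and 0.886 CPM. In both genes control replicates 2 and 3 also lay above knockdown, but at a small part of replicate 1. Without that library all 6 genes of the next sentence were still called (adjusted p 0.00164 to 0.0381), at smaller log2 fold changes, such as -1.80 in place of -4.72 for wisp and -0.72 in place of -2.83 for spd-2. The calls of Jon99Cii, CG18180, LManVI, CG10472, wisp and spd-2 ended without knockdown replicate 1 (adjusted p 0.1 to 0.124), 2 (0.0927 to 0.118) or 3 (0.0868 to 0.132). The 9 midgut markers and 8 ovary and eggshell markers that passed the filter gave 1 rise and 2 falls, and 0 rises and 3 falls. Falls numbered 2, 3, 9, 0, 0 and 0 for midgut and 1, 3, 10, 0, 0 and 1 for ovary markers with 1 library left out, where the filter may pass more of them. The part of gut and ovary tissue in these falls was not tested.

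Genes of energy metabolism rose as a group. Of 69 nuclear genes of oxidative phosphorylation, the respiratory chain and ATP synthase of mitochondria, 47 rose and 0 fell, with a median of 0.27. The complex I gene ND-13B had control levels of 46.9, 46.2 and 45.4 CPM and knockdown levels of 64, 65.4 and 62.9 CPM. All knockdown libraries lay above all control libraries (log2 fold change 0.47 ± 0.073, adjusted p = 0.00122). ATPsynbeta, for the catalytic subunit of ATP synthase, rose from 1751, 1674 and 1644 to 2146, 2254 and 2188 CPM (0.38 ± 0.07), and ND-SGDH (0.23 ± 0.043), Cyt-c1 (0.28 ± 0.052) and the complex III gene ox (0.47 ± 0.087) also rose. SdhA (0.07 ± 0.078) and ND-51 (0.05 ± 0.059) were not called. The count of rises was 25, 30 and 25 without control replicates 1, 2 and 3 in turn and 24, 22 and 25 without knockdown replicates 1, 2 and 3, and 28 on TPM, with 0 falls each time. Of 19 genes of the TCA cycle and pyruvate dehydrogenase, 9 rose and 0 fell (median 0.28), with the citrate synthase gene kdn at control levels of 389, 372 and 338 CPM and knockdown levels of 553, 563 and 539 CPM (log2 fold change 0.59 ± 0.10, adjusted p = 0.00274). The pyruvate dehydrogenase genes Pdha (0.31 ± 0.065) and muc (0.28 ± 0.068) and the isocitrate dehydrogenase gene CG5028 (0.28 ± 0.068) rose as well. The TCA count was 5, 5 and 6 without control replicates 1, 2 and 3 in turn and 4, 6 and 4 without knockdown replicates 1, 2 and 3. At ZT8, 61 of the 69 oxidative phosphorylation genes and 10 of the 19 TCA genes rose.

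Of 21 genes of glycolysis and lactate metabolism, 10 rose and 1 fell (median 0.27). Gapdh1, a glyceraldehyde-3-phosphate dehydrogenase gene, had control levels of 589, 524 and 481 CPM and knockdown levels of 806, 826 and 765 CPM, without overlap (log2 fold change 0.59 ± 0.12, adjusted p = 0.0066). Gapdh2 (0.30 ± 0.063), the glycerol-3-phosphate dehydrogenase gene Gpdh1 (0.74 ± 0.16) and the glycogen-targeting phosphatase subunit gene Gbs-70E (0.63 ± 0.11) rose. The count of rises was 5, 5 and 6 without control replicates 1, 2 and 3 in turn and 5, 5 and 5 without knockdown replicates 1, 2 and 3. The gene that fell was Ldh, lactate dehydrogenase, at control levels of 30.8, 36.6 and 28.9 CPM and knockdown levels of 15, 15.6 and 15.6 CPM. The knockdown libraries spanned less than 1 CPM and lay far below control (log2 fold change -1.06 ± 0.11, adjusted p = 9.05e-05). At ZT8 Ldh was higher in knockdown (0.76 ± 0.11), and the difference between the times passed the test (-1.81, adjusted p = 4.19e-04), with any 1 ZT16 library left out as well. Of 29 lipid genes 3 rose (10.3%, near the 11.2% of all genes tested) and 0 fell. With 1 library left out 2, 2, 3, 2, 2 and 2 rose and 2, 1, 1, 0, 0 and 0 fell. Among the rises were the diacylglycerol acyltransferase gene mdy (0.64 ± 0.11) and the acetyl-CoA synthetase gene AcCoAS (0.62 ± 0.15). Of 26 sarcomere genes 12 rose and 0 fell (median 0.37), among them Mlc1 (0.64 ± 0.12), Tm1 (0.42 ± 0.085), up (0.52 ± 0.11), Prm (0.61 ± 0.13) and Mhc (0.40 ± 0.09). That count was 7, 9 and 7 without control replicates 1, 2 and 3 in turn and 8, 7 and 7 without knockdown replicates 1, 2 and 3. The giant titin-related genes bt (0.15 ± 0.15) and sls (-0.06 ± 0.16) were not called. Summed sarcomere transcripts were 11100, 12700 and 12300 CPM across control libraries and 14300, 16100 and 16600 CPM across knockdown ones, and mitochondrial rRNA was higher in knockdown too, as given above. The part of muscle and of mitochondrial RNA in the rise of the energy genes was not tested.

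**Figure D2:**
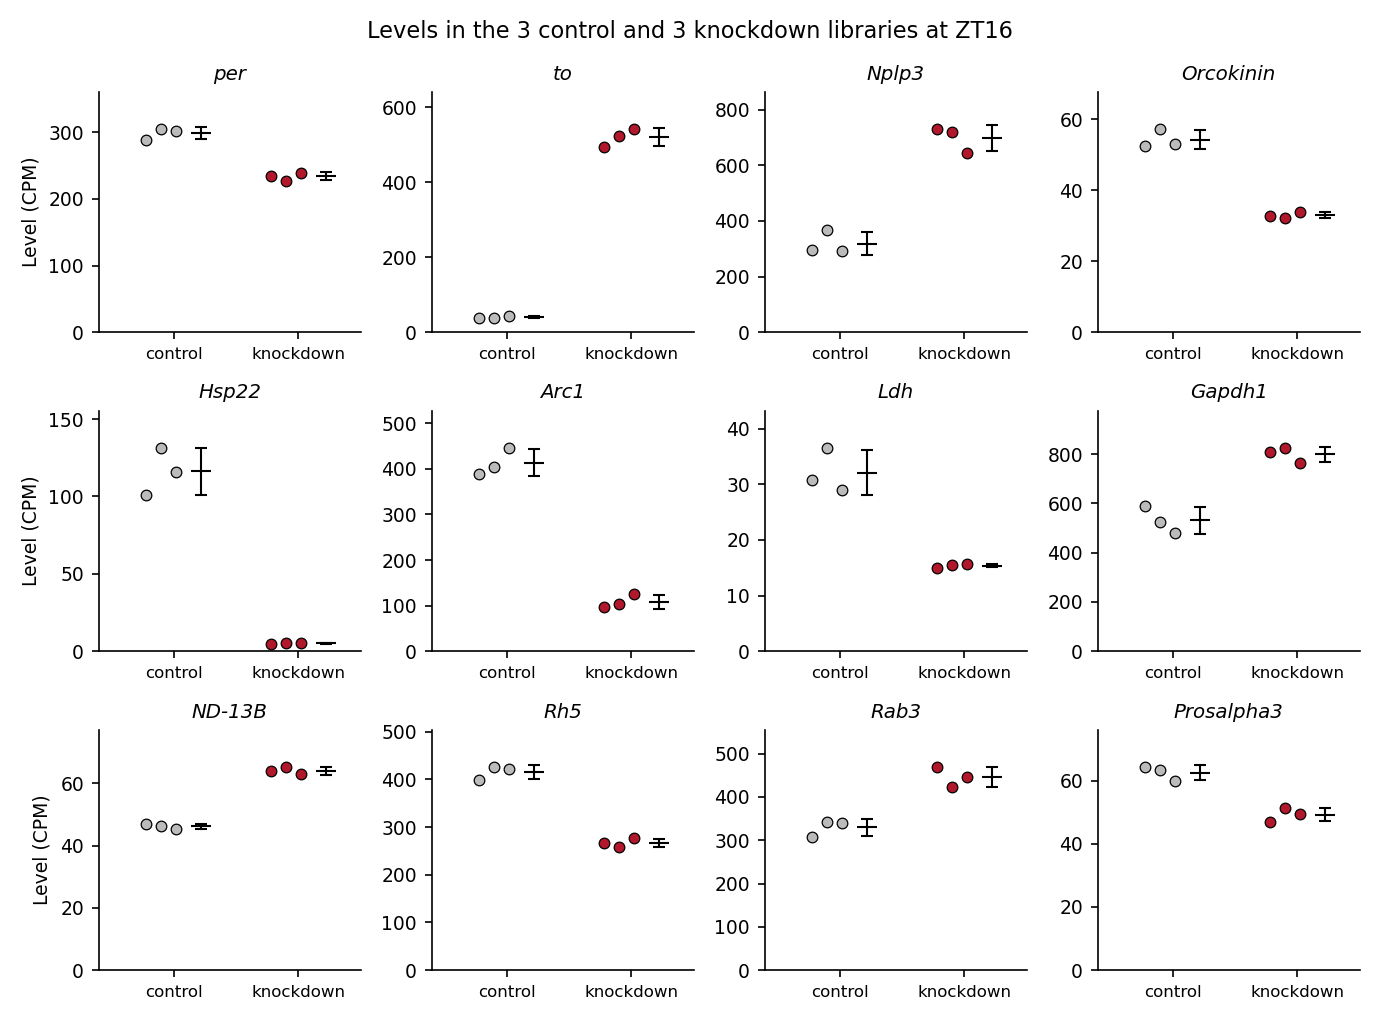
Levels in CPM of 12 genes in the 3 control (grey) and 3 knockdown (red) libraries at ZT16, replicates 1 to 3 from left to right, with mean ± SD beside them and each vertical axis starting at 0. In all 12 genes the groups do not overlap, and the spread within a group is small beside the difference of the group means.

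Several stress genes fell. The mitochondrial small heat shock gene Hsp22 had control levels of 101, 132 and 116 CPM and knockdown levels of 4.90, 5.21 and 5.35 CPM. Every knockdown library lay at about 5 CPM (log2 fold change -4.49 ± 0.22, adjusted p = 1.11e-06), whereas at ZT8 the gene stood at 0.40 ± 0.19 and did not pass the test. The difference between the times was -4.89 ± 0.29 (adjusted p = 9.08e-05), and was called with any 1 ZT16 library left out. Other small heat shock genes did not follow it: of 11 tested 2 rose, Hsp67Bc (0.77 ± 0.10) and Hsp67Ba (0.74 ± 0.16), and Hsp22 alone fell. With 1 library left out 2, 2, 3, 1, 1 and 1 genes of this list fell. Xrp1, a transcription factor gene of the stress and cell competition response, had control levels of 516, 575 and 584 CPM and knockdown levels of 418, 424 and 425 CPM (log2 fold change -0.40 ± 0.056, adjusted p = 6.62e-04). PEK, the eIF2alpha kinase gene of the unfolded protein response, fell from 83.9, 90.2 and 85.4 to 61.3, 61.9 and 65 CPM (-0.46 ± 0.056). cnc, the fly Nrf2 gene, fell from 255, 254 and 255 to 201, 209 and 206 CPM (-0.31 ± 0.047), and overlaps the potassium channel gene Irk1, which fell too (-0.39 ± 0.067). Xrp1, PEK and cnc stood near 0 at ZT8 (-0.01 ± 0.056, -0.10 ± 0.056 and 0.01 ± 0.047). Their differences between the times passed the test (adjusted p = 0.0292, 0.0342 and 0.0329). Of the 6 fits that left out a library, each of the 3 was called only in the fit without control replicate 1. Of 22 unfolded protein and integrated stress response genes, 0 rose and 5 fell (median -0.086), a count that was 4, 3 and 4 without control replicates 1, 2 and 3 in turn and 4, 2 and 2 without knockdown replicates 1, 2 and 3. The ER degradation gene Edem1 (-0.25 ± 0.051) was among them. The DNA repair genes Ku80 (-0.56 ± 0.094) and tefu, the fly ATM gene (-0.42 ± 0.084), and the metallothionein gene MtnA (-0.45 ± 0.058) fell. The mitochondrial superoxide dismutase gene Sod2 (0.38 ± 0.084), the peroxiredoxin gene Prx2540-2 (0.73 ± 0.14) and the autophagy kinase gene Atg1 (0.19 ± 0.04) rose. Cell death and p53 genes (20 tested) gave 1 rise and 3 falls, and antioxidant genes (24 tested) 3 rises and 2 falls. Mitochondrial stress genes (21 tested) gave 3 rises and 3 falls, and Hsp70, Hsp90 and co-chaperone genes (22 tested) 2 rises and 3 falls. A fall was thus not common to all stress lists.

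Arc1, whose protein forms virus-like capsids and whose transcript follows neuronal activity, had control levels of 389, 405 and 447 CPM and knockdown levels of 96, 103 and 126 CPM. The knockdown libraries all lay below the control libraries (log2 fold change -1.93 ± 0.10, adjusted p = 4.35e-07). The fall was larger than at ZT8 (-0.51 ± 0.093), with a difference of -1.42 ± 0.13 (adjusted p = 8.71e-04) that was called with any 1 ZT16 library left out. Its relative Arc2 (-0.80 ± 0.12) and the activity-regulated gene CG14186 (-0.42 ± 0.082) fell, and the kinase gene meng rose (0.32 ± 0.051). Of 21 activity-regulated genes, 2 rose and 7 fell (median -0.10). The falls numbered 5, 3 and 3 without control replicates 1, 2 and 3 in turn and 3, 3 and 3 without knockdown replicates 1, 2 and 3. The Fos gene kay (0.03 ± 0.092) was not called.

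Some genes of synapses and of glia rose at ZT16. Of 28 neuron genes 15 rose and 0 fell (median 0.21). Rab3, for a synaptic vesicle GTPase, had control levels of 307, 342 and 339.5 CPM and knockdown levels of 469.9, 423 and 445 CPM (log2 fold change 0.44 ± 0.059, adjusted p = 5.46e-04). The vesicle transporter genes VGAT for GABA (0.47 ± 0.065) and VGlut for glutamate (0.34 ± 0.058), the synapsin gene Syn (0.31 ± 0.055) and the SNARE gene Snap25 (0.38 ± 0.066) rose, each without overlap. unc-13 (0.16 ± 0.068) and nSyb (0.06 ± 0.057) were not called. The count was 11, 15 and 13 without control replicates 1, 2 and 3 in turn and 11, 14 and 11 without knockdown replicates 1, 2 and 3, and 8 on TPM. Of 24 glia genes 8 rose and 1 fell (median 0.20), among them the sodium pump subunit gene nrv2 (0.43 ± 0.066), the blood-brain barrier transporter gene Mdr65 (0.38 ± 0.062), the gap junction genes Inx2 (0.31 ± 0.052) and ogre (0.27 ± 0.051), and the GABA transporter gene Gat (0.53 ± 0.10). The glia count was 6, 8 and 7 without control replicates 1, 2 and 3 in turn and 6, 7 and 7 without knockdown replicates 1, 2 and 3, with 1, 0, 1, 0, 1 and 0 falls, and on TPM 6 rose and 2 fell. Gs2 (0.21 ± 0.08) and Eaat1 (0.19 ± 0.082) were not called.

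Of 40 neurotransmitter receptor genes 20 rose and 2 fell (median 0.18). The GABA receptor subunit gene Grd had control levels of 13.7, 15.8 and 16 CPM and knockdown levels of 24.3, 23.2 and 24.8 CPM (log2 fold change 0.67 ± 0.078, adjusted p = 2.34e-04). The GABA receptor gene Rdl (0.33 ± 0.063), the acetylcholine receptor gene nAChRalpha4 (0.30 ± 0.058), the glutamate receptor gene Nmdar2 (0.27 ± 0.053) and the octopamine and tyramine receptor gene Oct-TyrR (0.34 ± 0.066) rose. The receptor count was 13, 23 and 16 without control replicates 1, 2 and 3 in turn and 14, 21 and 14 without knockdown replicates 1, 2 and 3, but 2 on TPM, where the median was 0.11. Of 30 voltage-gated and leak channel genes 7 rose and 2 fell (2, 1, 1, 1, 1 and 1 fell with 1 library left out, and 2 rose on TPM), with the leak potassium channel genes Task6 (0.34 ± 0.061) and Task7 (0.36 ± 0.068) among the rises, and slo (0.01 ± 0.053) and Sh (0.11 ± 0.068) not called. The counts at ZT8 were different: 2 neuron genes rose and 5 fell, 0 glia genes were called, and 1 receptor gene rose and 8 fell. The effect was higher at ZT16 than at ZT8 by the test of the difference in 10 neuron, 4 glia and 15 receptor genes, against 286 of all 10717 genes tested. These counts were fragile. For neuron genes the count was 5, 5 and 1 without control replicates 1, 2 and 3 in turn and 0, 10 and 1 without knockdown replicates 1, 2 and 3, for receptor genes 6, 11 and 0 without control replicates 1, 2 and 3 in turn and 0, 9 and 0 without knockdown replicates 1, 2 and 3, and on TPM it was 3 and 0. Photoreceptor transcripts, which share the same libraries and took up to 86400 CPM of them, summed to 78000, 86400 and 85200 CPM across control libraries and 76500, 72800 and 77000 CPM across knockdown ones, and the part of such shifts in the neuron and glia rises was not tested.

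In the eye, 5 of 37 photoreceptor genes rose and 9 fell (median -0.048). The falls included opsin genes of the colour-sensing photoreceptors. Rh5, the opsin of blue-sensitive cells, had control levels of 399, 427 and 421 CPM and knockdown levels of 267, 259 and 276 CPM (log2 fold change -0.64 ± 0.055, adjusted p = 2.31e-05). Rh3, the opsin of ultraviolet-sensitive cells, fell from 966, 1020.3 and 1026 to 776, 761 and 788 CPM (-0.37 ± 0.049), and Rh6, the opsin of green-sensitive cells, fell from 485, 561 and 518 to 408, 386 and 414 CPM (-0.37 ± 0.063). stops, a gene needed for the end of the light response, fell from 115, 122 and 129 to 75.8, 71.7 and 73.9 CPM (-0.72 ± 0.077), and gl, for the Glass transcription factor of photoreceptors, fell (-0.25 ± 0.04). In these 5 genes the groups did not overlap, and each was also called lower at ZT8, at -0.67 ± 0.055, -0.39 ± 0.049, -0.44 ± 0.063, -0.69 ± 0.076 and -0.19 ± 0.039. The count of falls was 11, 6 and 6 without control replicates 1, 2 and 3 in turn and 6, 6 and 6 without knockdown replicates 1, 2 and 3. The arrestin genes Arr1 (0.01 ± 0.072) and Arr2 (-0.12 ± 0.075) were not called. CarT, the carrier that returns the histamine conjugate carcinine to photoreceptors, fell from 71.1, 84.7 and 78 to 55.5, 51.9 and 52.8 CPM (-0.55 ± 0.07). It was the only fall among 9 histamine signalling genes, of which 2 rose and 7 lay above 0 (median 0.13). With 1 library left out 1, 2, 1, 0, 2 and 1 of them rose. Of 19 eye pigment genes 2 rose, the transporter gene w (163, 164 and 186 to 418, 432 and 496 CPM, 1.39 ± 0.10) and the GTP cyclohydrolase gene Pu (0.50 ± 0.09), and 2 fell, with 2, 1, 0, 2, 0 and 0 falls when 1 library was left out. A copy of w is carried as a marker by many transgenes, and reads of such a copy cannot be separated from reads of the w locus.

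Some genes for making and destroying proteins fell in small steps. Of 86 cytoplasmic ribosomal protein genes 0 rose and 21 fell (median -0.12). Falls numbered 10, 18, 7, 1, 20 and 5 with 1 library left out, so the count rested most on knockdown replicates 1 and 3. Without control replicate 3 or knockdown replicate 1 or 3, the share that fell was not above that of all genes tested. RpS21 fell from 210.2, 201 and 217 to 167, 179 and 179 CPM (-0.26 ± 0.053), whereas RpL3 (-0.18 ± 0.067) and RpL5 (-0.02 ± 0.061) were not called. Of 32 proteasome genes 0 rose and 12 fell, all 32 were below 0, and the median was -0.17. Prosalpha3, a core subunit gene, had control levels of 64.4, 63.3 and 59.8 CPM and knockdown levels of 47, 51.2 and 49.3 CPM (log2 fold change -0.35 ± 0.06, adjusted p = 0.00256). The core gene Prosbeta3 (-0.31 ± 0.069) and the lid gene Rpn9 (-0.26 ± 0.056) fell, and Rpn1 (-0.18 ± 0.062) and Rpn6 (-0.14 ± 0.059) were not called. The proteasome count was 5, 7 and 10 without control replicates 1, 2 and 3 in turn and 4, 7 and 4 without knockdown replicates 1, 2 and 3, and 20 on TPM. At ZT8 0 proteasome genes were called. Of 46 translation factors 8 rose and 5 fell, the falls near the share of all genes. Falls numbered 2, 4, 4, 1, 2 and 3 with 1 library left out, and on TPM 2 rose. In this list eIF3i (0.22 ± 0.039), eIF3h (0.24 ± 0.048), eIF3l (0.32 ± 0.062) and eIF4EHP (0.30 ± 0.057) rose and eIF4B fell (-0.25 ± 0.05). Of 73 mitochondrial ribosomal protein genes 6 rose and 3 fell (8.22% and 4.11%, below the shares of all genes), and with 1 library left out 3, 3, 3, 2, 2 and 3 rose and 0, 2, 2, 0, 1 and 1 fell. Of these, mRpL37 rose from 22.6, 22.4 and 21.9 to 40.4, 41.9 and 43.2 CPM (log2 fold change 0.91 ± 0.051, adjusted p = 7.31e-07), as it had at ZT8 (1.19 ± 0.051).

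Some genes of the machinery in which cyclophilins of the PPIL4 kind act also fell in small steps. Of 36 spliceosome genes 0 rose and 11 fell (30.6%, against 11.0% of all genes tested, median -0.13). With 1 library left out 2, 10, 7, 1, 5 and 2 fell. Over all genes tested, falls in these fits numbered 802, 1027, 1087, 542, 610 and 650. The spliceosome share did not exceed that of all genes without control replicate 1 or knockdown replicate 1 or 3. SmE, for a core protein of the small nuclear ribonucleoproteins, fell from 14.6, 12.7 and 14.2 to 11, 10.8 and 10.5 CPM (-0.36 ± 0.072). snRNP-U1-70K (0.03 ± 0.044) and U2af50 (0.02 ± 0.046) were not called. Of 33 RNA polymerase II and tail kinase genes 1 rose and 6 fell (median -0.10), and the falls numbered 4, 5 and 5 without control replicates 1, 2 and 3 in turn and 2, 4 and 4 without knockdown replicates 1, 2 and 3. The polymerase subunit genes Rpb4 (-0.45 ± 0.10) and Rpb11 (-0.45 ± 0.11) were among them. Of 15 cyclophilin genes 0 rose and 4 fell, CG5808 included (median -0.23). That count was 2, 2 and 3 without control replicates 1, 2 and 3 in turn and 2, 0 and 2 without knockdown replicates 1, 2 and 3, and the abundant cyclophilin genes Cyp1 (-0.07 ± 0.086) and CG2852 (0.05 ± 0.079) were not called. Of 27 splicing factor genes of the SR and hnRNP kinds, 2 rose (7.41%) and 3 fell (11.1%). Over all genes tested, 11.2% rose and 11.0% fell. The RNA-binding genes nito (-0.32 ± 0.051) and glo (-0.29 ± 0.056) fell. Of 16 RNA interference genes 0 rose and 4 fell, and 2, 6, 5, 1, 2 and 2 fell with 1 library left out. Dcr-1, the dicing enzyme gene of the miRNA pathway, was among them (-0.25 ± 0.05), and Dcr-2, which both genotypes carry as a transgene, was not called at control levels of 2255, 2152 and 2603 CPM and knockdown levels of 2439.5, 2668 and 2693 CPM.

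**Figure D3:**
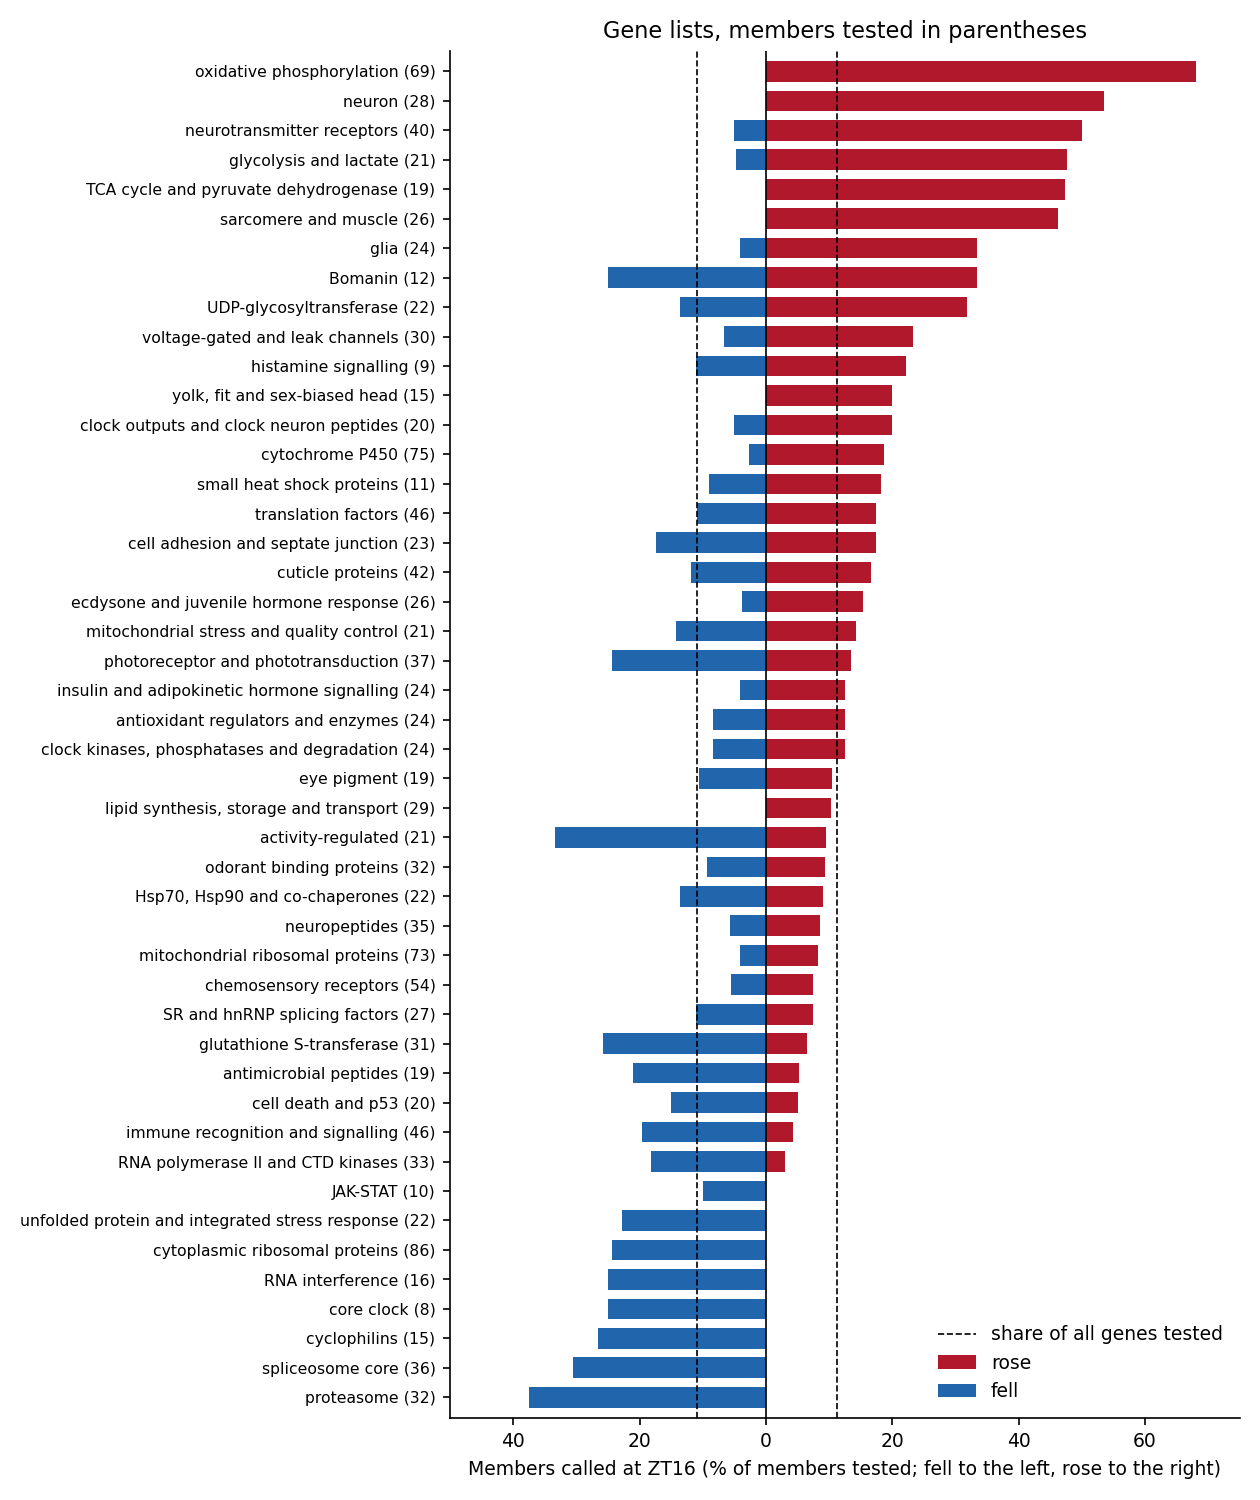
Share of each gene list's tested members that rose (right, red) or fell (left, blue) at ZT16, in % of members tested, with dashed lines at the shares over all genes tested, 11.2% and 11.0%. Oxidative phosphorylation, with 47 of 69 members, lies at the top and the proteasome, with 12 of 32 falls, at the bottom; on TPM the neurotransmitter receptor rises were 2 of 40 in place of 20.

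Immune genes changed in both directions. Among recognition and signalling genes (46 tested), 9 fell (19.6%) and 2 rose (4.35%), against 11.0% and 11.2% of all genes tested. The falls numbered 8, 7 and 5 without control replicates 1, 2 and 3 in turn and 4, 6 and 4 without knockdown replicates 1, 2 and 3. Rel, the NF-kappaB gene of the Imd pathway, fell from 148, 156 and 160.0 to 101, 116 and 109.7 CPM (log2 fold change -0.50 ± 0.071, adjusted p = 7.16e-04). PGRP-SD, a peptidoglycan sensor gene of that pathway, had control levels of 18.2, 19.7 and 19.1 CPM and knockdown levels of 2.93, 3.70 and 2.92 CPM, and PGRP-LB, an amidase gene it induces, fell from 12.3, 10.5 and 10.4 to 4.82, 4.84 and 4.69 CPM (-1.21 ± 0.23). The thioester protein gene Tep4 rose from 60.0, 42.6 and 45.3 to 161, 154 and 152 CPM (1.66 ± 0.12), and the pattern recognition gene GNBP1 rose (0.42 ± 0.063). Of 19 antimicrobial peptide genes 1 rose and 4 fell, with a median of -2.88, which was -1.52 without control replicate 1. CG33470 fell from 669.8, 621 and 606 to 259, 296 and 311 CPM (-1.13 ± 0.14), Def fell (-3.10 ± 0.66), and the drosomycin-like gene Drsl5 rose (1.24 ± 0.23). The antimicrobial falls numbered 2, 3 and 3 without control replicates 1, 2 and 3 in turn and 2, 2 and 2 without knockdown replicates 1, 2 and 3. AttC had control levels of 182, 57.1 and 64.7 CPM and knockdown levels of 8.96, 7.63 and 17.6 CPM, with control replicate 1 far above the other control libraries, and was not called (adjusted p = 0.0613). Of 12 Bomanin genes, short peptides of the Toll response, 4 rose and 3 fell. With 1 library left out 4, 4, 4, 3, 4 and 4 rose and 1, 2, 1, 0, 1 and 1 fell. BomBc1 (19.2, 11.7 and 9.74 to 43.6, 50.1 and 61.7 CPM, 1.94 ± 0.25) and BomS4 (1.49 ± 0.11) rose, and BomS3 (-0.29 ± 0.17) and BomS6 (-0.29 ± 0.16) were not called. Bomanin genes resemble each other, so the authors' assignment could split reads among them. Hemocyte markers summed to 1120, 1100 and 1190 CPM across control libraries and 1360, 1490 and 1460 CPM across knockdown ones, without overlap. Of the 15 tested, 11 lay above 0 (median 0.20), but 1 rose and 2 fell. With 1 library left out 0, 1, 0, 0, 0 and 0 rose and 1, 2, 1, 1, 1 and 1 fell. The part of hemocytes in these changes was not tested. The Turandot stress genes TotA and TotC were not called at ZT16 (-0.48 ± 0.41 and -0.52 ± 0.43), whereas both had risen at ZT8 (1.45 ± 0.42 and 2.19 ± 0.44). Each was called at ZT16 under 1 of 8 other settings. Turandot transcripts at ZT16 summed to 586, 756 and 599 CPM across control libraries and 469, 462 and 449 CPM across knockdown ones, without overlap. Summed Turandot transcripts at ZT8 were 381, 277 and 292 CPM across control libraries and 1370, 1440 and 372 CPM across knockdown ones. Knockdown replicate 3 at ZT8 thus lay within the control range, and no fit left out a ZT8 library.

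Peptide and hormone genes changed singly. Of 35 neuropeptide genes 3 rose (8.57%) and 2 fell (5.71%), against 11.2% and 11.0% of all genes tested. Nplp3, a neuropeptide-like precursor gene, had control levels of 295, 367 and 293 CPM and knockdown levels of 731, 718 and 643 CPM, without overlap (log2 fold change 1.13 ± 0.18, adjusted p = 0.00211). Orcokinin fell from 52.4, 57.4 and 53 to 32.7, 32.2 and 34 CPM (-0.72 ± 0.14), and the abundant Nplp2 was not called (0.15 ± 0.19). Ilp3, an insulin-like peptide gene of the brain, rose from 6.0, 5.04 and 8.64 to 22.8, 23.9 and 20.6 CPM (log2 fold change 1.77 ± 0.38, adjusted p = 0.0103), and overlaps CG32052. Of 24 insulin and adipokinetic hormone pathway genes 3 rose (12.5%), Ilp3 among them, and 1 fell (4.17%), the growth kinase gene Tor (-0.21 ± 0.046). Its downstream kinase gene S6k rose (0.19 ± 0.046), and the genes Thor (0.19 ± 0.11) and ImpL2 (-0.29 ± 0.21) were not called. Of 26 ecdysone and juvenile hormone genes 4 rose (15.4%) and 1 fell (3.85%). With 1 library left out 2, 3, 3, 2, 3 and 2 rose and 0, 0, 0, 0, 0 and 0 fell. The lowest adjusted p was that of the nuclear receptor gene Eip78C, which rose from 30.0, 34.4 and 31.5 to 54.8, 48 and 51.6 CPM (log2 fold change 0.69 ± 0.063, adjusted p = 3.72e-05).

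Detoxification genes gave some of the surest calls. Of 75 cytochrome P450 genes 14 rose and 2 fell (2, 4, 4, 2, 2 and 2 falls with 1 library left out). The rises numbered 8, 10 and 12 without control replicates 1, 2 and 3 in turn and 8, 8 and 9 without knockdown replicates 1, 2 and 3. Cyp6a2 had control levels of 16.1, 17.6 and 17.1 CPM and knockdown levels of 69.9, 60.9 and 60.0 CPM (log2 fold change 1.91 ± 0.075, adjusted p = 6.78e-08), and Cyp6w1 rose from 97.3, 113 and 108 to 276, 268 and 255 CPM (1.33 ± 0.10). Cyp28a5 fell from 99.8, 102 and 104 to 56, 58 and 57.3 CPM (-0.84 ± 0.064). Cyp6a2 and Cyp28a5 had changed by like amounts at ZT8 (2.04 ± 0.074 and -0.86 ± 0.064). Of 31 glutathione S-transferase genes 2 rose and 8 fell (median -0.14). GstE1 rose from 9.93, 9.10 and 8.44 to 26.3, 27.7 and 24.2 CPM (1.51 ± 0.082), while a cluster of delta class genes on chromosome 3R fell, GstD2 (-1.69 ± 0.26), GstD3 (-0.76 ± 0.13), GstD9 (-0.95 ± 0.12) and GstD10 (-1.36 ± 0.22). Falls numbered 7, 7 and 7 without control replicates 1, 2 and 3 in turn and 6, 7 and 6 without knockdown replicates 1, 2 and 3. The most abundant delta gene, GstD1, was not called (-0.18 ± 0.067). Of 22 UDP-glycosyltransferase genes 7 rose and 3 fell, with 1, 3, 1, 0, 1 and 0 falls when 1 library was left out. Among them were Ugt302C1 (27.4, 26.4 and 27.8 to 43.8, 44.9 and 43.7 CPM, log2 fold change 0.70 ± 0.04, adjusted p = 1.02e-06), Ugt35A1 (0.80 ± 0.079), Ugt35B1 (0.57 ± 0.076) and Ugt301D1 (0.74 ± 0.14), all 4 of which rose.

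Lists of secreted and sensory proteins stayed near the background, with single genes of large change. The odorant binding gene Obp44a, also expressed in fat body and glia, rose from 306, 339.8 and 325 to 819.8, 793 and 737 CPM (log2 fold change 1.28 ± 0.079, adjusted p = 1.49e-06). Obp56g fell (-0.43 ± 0.071), and Obp19d was not called (0.12 ± 0.12). Of 32 odorant binding genes 3 rose and 3 fell, and with 1 library left out 2, 3, 3, 2, 1 and 2 rose and 5, 2, 2, 2, 2 and 2 fell. Of 54 chemosensory receptor genes 4 rose and 3 fell, and with 1 library left out 2, 3, 3, 2, 2 and 2 rose and 3, 3, 2, 2, 2 and 2 fell. The odorant receptor gene Or63a fell from 7.39, 8.76 and 8.95 to 4.34, 4.57 and 5.28 CPM (-0.82 ± 0.11). Of 42 cuticle genes 7 rose and 5 fell (5, 6, 6, 4, 3 and 3 falls with 1 library left out). Cpr72Ec fell from 173, 194 and 181 to 87.8, 93.5 and 97.4 CPM (log2 fold change -0.98 ± 0.058, adjusted p = 1.11e-06), while Cpr47Ee (0.72 ± 0.14) and Lcp65Ag2 (2.78 ± 0.36) rose. The yolk protein genes Yp1 (-0.04 ± 0.26) and Yp3 (0.16 ± 0.31) were not called, and Yp1 varied among control libraries (11106, 7611 and 12124 CPM). Fat body markers summed to 38100, 28200 and 39900 CPM across control libraries and 35700, 43200 and 37600 CPM across knockdown ones. Of 20 fat body markers 2 rose and 1 fell, and each fit with 1 library left out gave 1 rise and 0 falls. Of 16 antenna markers 0 rose and 1 fell, a fall lost without knockdown replicate 3. Of 23 cell adhesion and septate junction genes 4 rose and 4 fell, and with 1 library left out 1, 3, 1, 1, 2 and 1 rose and 4, 1, 3, 1, 1 and 2 fell.

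Genes on chromosome 4, the small dot chromosome that is largely packed as heterochromatin, held a larger share of rises than the other arms, a pattern noticed after the values were seen and given without a test. Of 97 genes tested there 30 rose (30.9%) and 1 fell (1.03%), and on the 5 large arms 9.48% to 12.3% rose. The median on chromosome 4 was 0.125 and 76 of the 97 genes (78.4%) lay above 0, against 47.1% of all genes. In 52 of them all knockdown libraries lay above all control libraries, against 21.6% of all genes tested. The count of rises was 24, 27 and 27 without control replicates 1, 2 and 3 in turn and 23, 26 and 20 without knockdown replicates 1, 2 and 3, and 15 rose and 2 fell on TPM. yellow-h had control levels of 18.1, 19.4 and 20.6 CPM and knockdown levels of 35.5, 32.1 and 32.4 CPM (0.78 ± 0.083), and the adaptor gene Crk had control levels of 85.1, 85.8 and 83.3 CPM and knockdown levels of 116, 114 and 114 CPM (0.43 ± 0.046), both chosen here as the genes of lowest adjusted p on the chromosome. At ZT8 10.3% of the genes there rose and 9.28% fell. The effect was higher at ZT16 than at ZT8 by the test of the difference in 15 of the 97 genes, a count that was 6, 8 and 0 without control replicates 1, 2 and 3 in turn and 0, 10 and 1 without knockdown replicates 1, 2 and 3, and 0 on TPM.

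Gene span and level also went with the direction of change. Among the 2034 mRNA genes of the longest genomic span, 368 (18.1%) rose and 203 (9.98%) fell, whereas in the other 4 classes of span, of like size, 8.03% to 11.4% rose. This balance held on counts only: on TPM 123 of these genes rose and 146 fell, with a median of -0.022 in place of 0.036. The count of rises was 228, 349 and 287 without control replicates 1, 2 and 3 in turn and 223, 317 and 233 without knockdown replicates 1, 2 and 3. Of the chromosome 4 genes tested, 44 were in that class and 14 of these rose. Among the 2034 most abundant mRNA genes 21.0% rose and 9.19% fell, and among the 2034 least abundant 5.36% and 9.93%. On chromosome X 1.52% of genes changed by at least 2-fold, the lowest share among the 5 large arms, against 3.24% of all genes.

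**Figure D4:**
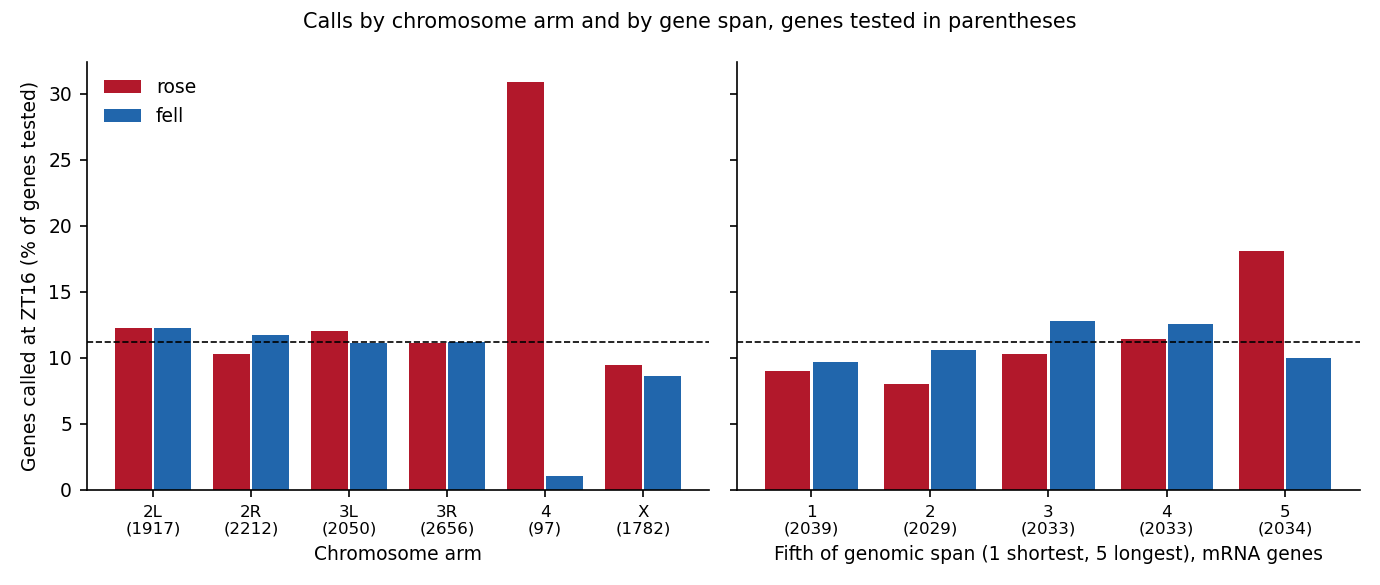
Percentage of genes tested that rose (red) or fell (blue) at ZT16, by chromosome arm (left) and by 5 classes of genomic span among mRNA genes, shortest to longest (right), with the number of genes tested in parentheses and a dashed line at 11.2%, the share of all genes that rose. Chromosome 4 has 30.9% rising and 1.03% falling, and the longest class with 18.1% rising; on TPM that class had 123 rises and 146 falls.

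Transcript usage, the share of a gene's reads that the authors' estimates assign to each transcript variant, changed in 329 of 5448 genes tested (6.04%) by the F test of limma. The count was 262, 240 and 260 without control replicates 1, 2 and 3 in turn and 221, 235 and 205 without knockdown replicates 1, 2 and 3, and 126 genes were called each time. For 212 of the 329 genes the gene's own level was not called, 78 rose and 39 fell. RpS21 stood out by the size of the shift (adjusted p = 7.12e-13). Its variant E took 0.436%, 0.459% and 0.426% of the gene's reads in control and 20.8%, 21.5% and 20.5% in knockdown, from 27 reads per control library and 867 to 1118 per knockdown library. Variant A took 95.7% to 96.8% in control and 74.4% to 75.4% in knockdown. In CG12547, an uncharacterised gene on chromosome 2R that rose (0.33 ± 0.051), variant B took 20.3% to 23.8% in control and 50.6% to 56.5% in knockdown (adjusted p = 4.50e-09).

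In Ggamma30A, the G protein gamma subunit gene of phototransduction, variant F fell from 26.4%, 28.0% and 26.6% to 16.4%, 16.8% and 17.2% of reads, and variant B was at 9.82% to 10.3% in control and 15.1% to 17.1% in knockdown (adjusted p = 2.47e-17). The gene's level was not called (0.12 ± 0.064). In the complex I gene ND-15, variant A took 22.8% to 25.5% in control and 43.1% to 45.8% in knockdown (adjusted p = 3.76e-13), and the annotated span of the gene overlaps many others on both strands. In the ferritin gene Fer1HCH, variant D took 17.2% to 19.7% in control and 27.0% to 30.0% in knockdown (adjusted p = 1.79e-11). In the variants named for these 5 genes the groups did not overlap. They are the 5 genes of lowest adjusted p that were also called without control replicate 1. The shares are estimates, since variants of a gene have most of their sequence in common.

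The knockdown effects at the 2 times, which share no library, were partly alike. Of the 2379 genes called at ZT16, 1800 (75.7%) had the same sign at ZT8, against 63.8% of all genes tested. At ZT8 1671 genes (15.6%) were called, of which 947 (8.84% of genes tested) rose and 724 (6.76%) fell, and 670 genes were called in the same direction at both times, 28.2% of the ZT16 calls and 40.1% of the ZT8 calls. A further 46 genes were called in opposite directions, and for all 46 the difference between the times passed the test. In that test 448 genes (4.18%) were called, 286 with a higher effect at ZT16 and 162 with a lower one. This count was 320, 269 and 24 without control replicates 1, 2 and 3 in turn and 19, 292 and 73 without knockdown replicates 1, 2 and 3, so single genes are given with the number of these 6 fits in which they were called. Hsp22, Arc1, Ldh and CG31664 were called in all 6. CG31664 had control levels of 12.4, 11.6 and 12 CPM and knockdown levels of 5.99, 7.48 and 7.87 CPM (-0.75 ± 0.12) and stood at 0.72 ± 0.11 at ZT8, a difference of -1.47 ± 0.17 (adjusted p = 0.00479). CG5883 fell at ZT16 (-1.26 ± 0.20) and differed from ZT8 by -1.49 ± 0.28 in 4 of the 6. CG7910 differed by -3.11 ± 0.61 in 2, CG5966 by -2.20 ± 0.35 in 3, and CG7695 (-2.14 ± 0.46) and CG14502 (-1.63 ± 0.40) in 1 each. At ZT16 itself CG7695 and CG14502 were not called, and the call of CG5966 ended with any 1 library left out.

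**Figure D5:**
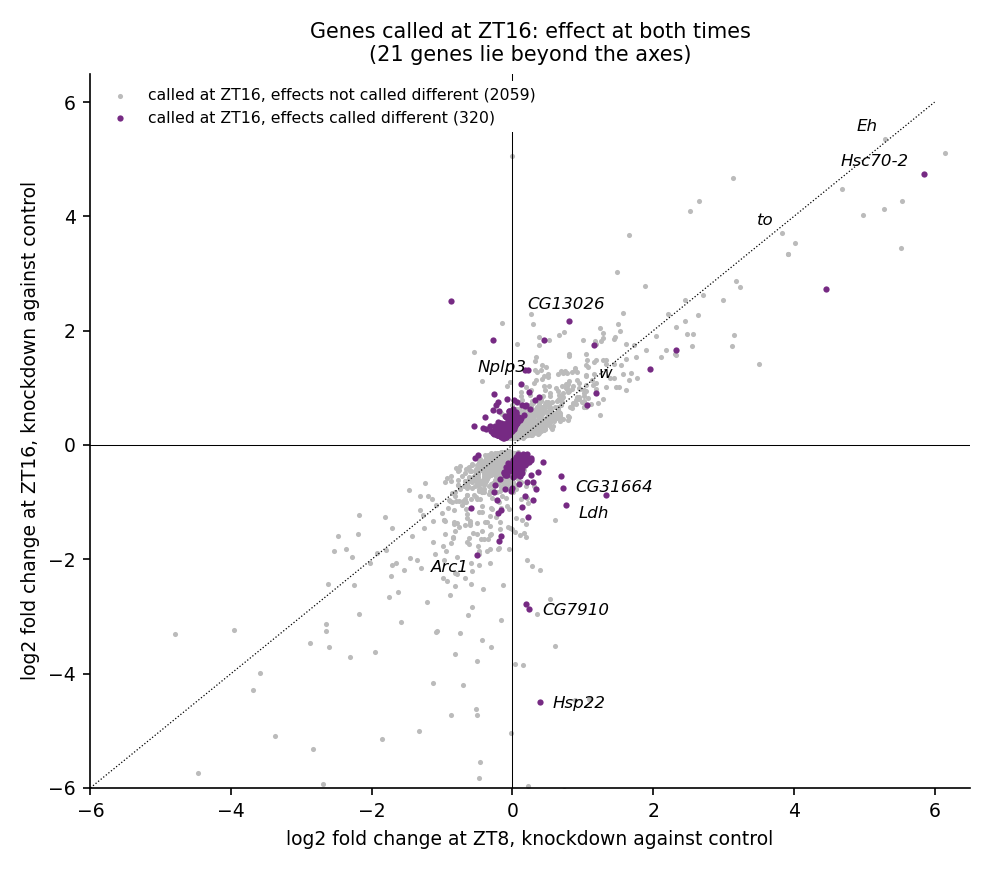
Log2 fold change of knockdown against control at ZT8 (horizontal axis) and ZT16 (vertical axis) for the 2379 genes called at ZT16, with the diagonal dotted; 21 genes lie beyond the axes. Purple marks the 320 genes whose effects were called different between the times, among them Hsp22, Ldh and Arc1 below the diagonal, and grey the other 2059.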

How the data were processed

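RNA of whole heads was prepared with a stranded poly(A) kit, per the labels' protocols. STAR 2.6.0c and RSEM 1.3.1 and the build dm6 are named in the submitters' processing notes. The authors deposited expected counts, FPKM and TPM for 35536 transcripts. Transcripts were added up by gene symbol from the deposited expected counts (17816 genes), which were whole numbers as deposited. The deposited TPM served as an alternative on log2(TPM + 0.1), and FPKM was not used. Genes were filtered with filterByExpr (minimum count 10), scaled by TMM and tested with edgeR 4.0.16 in R 4.3.3, by the quasi-likelihood test with Benjamini-Hochberg adjustment, in a model of 4 group means over all 12 libraries (8 residual degrees of freedom). The ZT16 effect was contrasted with the ZT8 effect in the same fit. Transcript usage was tested with limma 3.58.1, and DESeq2 1.42.0 was an alternative. Standard errors were taken as the size of the log2 fold change over the square root of F. On simulated data with 200 changed genes, edgeR called 139 of 10613 genes, 9 of them falsely. It found 20% of the genes changed by 1.25-fold and 70% of those changed by 1.5-fold. The simulation had far fewer changed genes than were called here and no library with transcripts of other organs. Its error and detection rates therefore may not hold for the real comparison. Libraries with the same number did not deviate together (correlations 0.037, 0.039 and 0.014), so they were not paired. Named genes were CG5808 and the core clock list, the 15 largest rises and falls that held without control replicate 1 with a mean of at least 5 CPM, up to 5 called and 2 abundant uncalled members of each list, the 8 largest differences between the times and the 5 surest changes in usage. A part of these is printed. The members, lists and tests were chosen with earlier results of these data known. Of the named genes, 78 overlap an annotated gene on the opposite strand and 23 one on the same strand, and the strand setting of the counting is not given in the sources used here. No sequences were used here.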

Additional observations from a re-analysis of the deposited data

Results flagged for a closer look

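The knockdown effect differed between ZT16 and ZT8 by edgeR's test of the difference in 39 of the named genes, which are listed here with the ZT16 effect minus the ZT8 effect on the log2 scale. Called with any 1 of the 6 ZT16 libraries left out were Arc1 (-1.42), CG31664 (-1.47), Hsp22 (-4.89) and Ldh (-1.81). Called in 5 of these 6 fits was Snap25 (0.57). In 4 of the fits the calls included CG5883 (-1.49), Inx2 (0.41), Mdr65 (0.54), Ugt302C1 (-0.36) and nrv2 (0.49). In 3 of the fits they included CG13026 (1.36), CG5966 (-2.2), Eip78C (0.51), Nmdar2 (0.37) and nAChRalpha4 (0.39). In 2 of the fits they included CG33470 (-0.97), CG7910 (-3.11), GstD2 (-1.49), Mid1 (0.42), Task6 (0.4) and Tep4 (-0.67). In 1 of the fits they included CG14502 (-1.63), CG7695 (-2.14), Cyp6w1 (-0.62), Gat (0.55), Hsc70-2 (-1.11), PEK (-0.37), Prosbeta3 (-0.44), Pu (0.58), Rab3 (0.33), SmE (-0.46), Xrp1 (-0.4) and cnc (-0.32). No call remained in any of the 6 fits for GstD1 (-0.4), Prosalpha3 (-0.34), Rdl (0.35), TotC (-2.71), mRpL37 (-0.28) and yellow-h (0.46). Among the genes called in every fit, CG31664, Hsp22 and Ldh had fitted values of opposite sign at the 2 times. The ZT8 value of Hsp22 was not itself called. Other genes listed here also changed sign, such as TotC. Over all 10717 genes tested 448 (4.18%) were called in this test. No cause of these differences was tested.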

How the results depend on the processing

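With 1 of the 6 ZT16 libraries left out, 1309 to 2073 genes were called at ZT16, 767 to 1046 that rose and 542 to 1087 that fell, 205 to 262 genes changed in transcript usage and 19 to 320 differed between the times. The count at ZT16 was lowest without knockdown replicates 1, 2 or 3 (1309, 1537 and 1447 calls, with 542, 610 and 650 genes that fell), and the count between the times was lowest without knockdown replicate 1 (19) or control replicate 3 (24). On log2(TPM + 0.1) 621 genes rose. The count of genes that differed between the times was 918 by DESeq2, 240 with no filter on low counts, 73 on TPM and 170 with a replicate block, against 448, and the cause was not tested. With the replicate block 1106 genes rose and 1011 fell at ZT16, and the libraries shared only a number. The log2 fold change of CG5808 was -0.487 (adjusted p = 0.0569) with no filter and -0.496 (0.05, just over the threshold) by limma-voom, and -0.551 to -0.422 with 1 library left out. Signs that reversed all belonged to genes that were not called at ZT16. On TPM these were Arr1 (-0.042), CG2852 (-0.003), ND-51 (-0.007), U2af50 (-0.035), kay (-0.046), nSyb (-0.045), sgg (-0.039), slo (-0.068) and snRNP-U1-70K (-0.071). Without control replicate 1 they were Arr1 (-0.054), CG14502 (-0.04), ND-51 (-0.019), Yp1 (0.02), kay (-0.055), sgg (-0.008) and slo (-0.015), without control replicate 2 Yp3 (-0.034), and without control replicate 3 Pdp1 (0.014), RpL5 (0.01) and Yp1 (0.107). Without knockdown replicate 1 they were RpL5 (0.021), Yp1 (0.03) and sls (0.043), and without knockdown replicate 3 Arr1 (-0.01), Yp1 (0.016), kay (-0.029) and slo (-0.001). With 1 library left out, the other ends of these ranges were Arr1 0.062, CG14502 0.42, Pdp1 -0.087, Yp1 -0.208, Yp3 0.318, kay 0.108, sgg 0.026 and sls -0.152. Of 154 named genes that were called, 145 were called with any 1 library left out and 130 under all other settings run. Many of them were picked for a low adjusted p or for a call without control replicate 1, which shaped these counts. Over all 2379 called genes, 1078 were called with any 1 library left out. Chromosome 4 and gene span counts were added after the data were seen.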
